A study of Mus musculus with 20 samples.

Results

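The genes that encode the proteins of the mitochondrial ribosome were followed in mouse heart RNA across diet and sex. Members were the protein-coding genes whose symbol begins with Mrpl or Mrps and a number. The prefixes stand for the large and the small subunit, but Mrps18a and Mrps30 were counted here with the large subunit and Mrps36 with neither. Of 83 symbols of that form, 5 belonged to pseudogenes and were left out, which gave 78 members among 49005 genes with counts. All 78 had enough counts to be tested, beside 17991 other genes. The libraries came from polyA-selected RNA of hearts of wild type C57BL/6 mice aged 12 weeks. Chow-F (5 libraries) are females on chow and Chow-M (5) are males on chow. PA-F (5) are females and PA-M (5) are males of the groups labelled PA, which is read here as the high-fat diet because the series names only chow and a high-fat diet. Chow-M4 was counted per gene and not per exon piece, so it entered no comparison and chow males number 4. The labels give no diet length or composition, and they do not say that libraries came from separate animals, so p-values measure the spread between these libraries.

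Mitochondria keep a small genome that encodes a few subunits of the respiratory chain and ATP synthase, and a dedicated ribosome translates them. All of that ribosome's proteins are encoded in the nucleus, made in the cytosol and imported, while its RNAs come from the mitochondrial genome. Some of the proteins descend from the bacterial ribosome and others are specific to mitochondria. Heart muscle draws most of its ATP from fatty acid oxidation and is dense in mitochondria.

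The 19 libraries compared held 57805110 to 85794067 deposited counts each. PA-F4 and PA-F5 stood apart from the rest. For genes with a mean log2 level above 0, each library's log2 level less the mean over 19 libraries was fitted on GC content. The slope per 10 percentage points of GC was -0.15 to 0.07 in 17 libraries and 0.53 and 0.81 in PA-F4 and PA-F5. The nuclear RNA Malat1 stood at 117 and 63.9 CPM (each library's counts scaled to one common total with TMM factors) in these libraries and at 1132 to 1533 in the others. Results are therefore given with all 19 libraries and without PA-F4 and PA-F5, and their values are shown separately. The heart label was matched by the cardiac myosin gene Myh6, at 35448 to 44468 CPM, while the fast skeletal myosin Myh4 was at 0 in 18 of 19 libraries and brown fat's Ucp1 at 0 in 16.

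Promoter sequences were available from RefSeq (GRCm38.p6) for 69 of the 78 members, as windows of 250 bases before and 50 after the gene start. Letters recognised by 3 factors long tied to nuclear genes of mitochondrial proteins were searched on both strands: CGCNTGCGC for nuclear respiratory factor NRF1, CCGGAAG for the ETS family, which includes GABP, and AAGATGGCG for YY1. The ETS letters end with the 3 bases that begin the YY1 letters, so a stretch can match both, and the NRF1 letters nearly read the same on both strands, so their matches can overlap. The NRF1 letters were in 16 member windows (23.2%) against 7.03% of 27025 genes. The ETS letters were in 26 (37.7%) against 9.93%, and the YY1 letters in 8 (11.6%) against 1.64%. At least 1 of the 3 was found in 42 members (60.9%) and in 16.5% of the 27025 genes. These are all genes with a RefSeq window, whether or not they had counts in these hearts. They were not matched to the members for level or GC content, so the gap is not shown to be particular to the members. The NRF1 letters were shortened by 1 base after a first search. A match describes letters and is not evidence of binding. The 4 stretches below, each the 250 bases before the start, belong to the members with the smallest p among those lower in PA-F1, PA-F2 and PA-F3 than in chow females that had a match there. Capitals mark the matches. The first base of a match lies 156 bases before the start in Mrps18c (ETS, on the other strand), 125 and 124 in Mrpl39 (NRF1, overlapping), 102 and 82 in Mrpl30 (NRF1) and 11 in Mrps22 (ETS). The coordinates are chr5:100798509-100798758 (plus strand), chr16:84735245-84735494 (minus), chr1:37890227-37890476 (plus) and chr9:98601680-98601929 (minus).
Mrps18c: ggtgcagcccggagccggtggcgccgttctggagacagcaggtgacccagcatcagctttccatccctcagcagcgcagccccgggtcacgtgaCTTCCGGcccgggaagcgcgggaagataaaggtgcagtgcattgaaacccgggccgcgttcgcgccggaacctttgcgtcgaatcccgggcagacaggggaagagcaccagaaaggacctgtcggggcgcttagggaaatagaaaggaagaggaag
Mrpl39: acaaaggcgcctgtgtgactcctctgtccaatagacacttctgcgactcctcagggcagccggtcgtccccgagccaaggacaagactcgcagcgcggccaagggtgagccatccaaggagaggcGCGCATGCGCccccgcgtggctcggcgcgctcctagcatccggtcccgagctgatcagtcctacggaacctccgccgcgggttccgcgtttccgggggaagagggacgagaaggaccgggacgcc
Mrpl30: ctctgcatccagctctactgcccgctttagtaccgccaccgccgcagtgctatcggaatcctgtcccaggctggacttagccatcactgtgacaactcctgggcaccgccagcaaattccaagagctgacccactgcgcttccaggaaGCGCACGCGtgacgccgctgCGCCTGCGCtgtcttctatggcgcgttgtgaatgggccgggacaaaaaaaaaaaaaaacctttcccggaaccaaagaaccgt
Mrps22: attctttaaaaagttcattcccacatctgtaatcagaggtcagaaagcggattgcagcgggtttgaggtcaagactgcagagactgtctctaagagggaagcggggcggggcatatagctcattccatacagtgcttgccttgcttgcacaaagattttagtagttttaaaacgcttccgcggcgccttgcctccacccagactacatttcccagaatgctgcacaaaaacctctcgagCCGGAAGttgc

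Levels per length differed widely among the members. Levels of different genes were compared per length, as CPM per kilobase of exon, on which scale a read that spans several exon pieces counts more than once. The length sums all annotated exon pieces of a gene, so it can exceed that of the transcript present in heart. Its part in the order of members and in the class medians was not tested. Mrpl42, a mitochondria-specific large subunit protein, stood highest, at 409 ± 27.0 (SD, n = 5) in chow females, 405 in chow males, 367 in PA-F and 368 in PA-M. Mrps21, a small subunit protein of bacterial origin, followed at 114 ± 8.72 in chow females. Mrpl12, a protein of the large subunit's factor-binding stalk, came next at 82.2 ± 5.55. At the other end, Mrpl57 stood at 4.80 ± 0.31, Mrpl33 at 4.32 ± 0.31 and Mrps10 at 4.04 ± 0.24 in chow females. Mrpl33 and Mrps10 differed by less than their spread, and 65.3% of the Mrpl33 counts lay in pieces shared with another gene and were set aside. The median was 24.9 over 28 large subunit members of bacterial origin, 19.4 over 22 large subunit members specific to mitochondria, 18.3 over 15 small subunit members of bacterial origin and 15.0 over 10 small subunit members specific to mitochondria. Mrpl55, Mrps28 and Mrps36 were placed in none of these classes. Mrps18a and Mrps18b were counted as specific to mitochondria, although they and Mrps18c descend from the same bacterial protein. Each class spanned more than its distance to the next. In the per-gene library Chow-M4, which was counted in another way, Mrpl42, Mrps21 and Mrpl12 also ranked highest, in the same order, and the order over all 78 members had a Spearman rho of 0.859 with that of the other chow males. Mrpl57, Mrpl33 and Mrps10 took places 59, 66 and 78 there. Both orders were divided by the same gene lengths, so part of their agreement was built in.

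**Figure D1:**
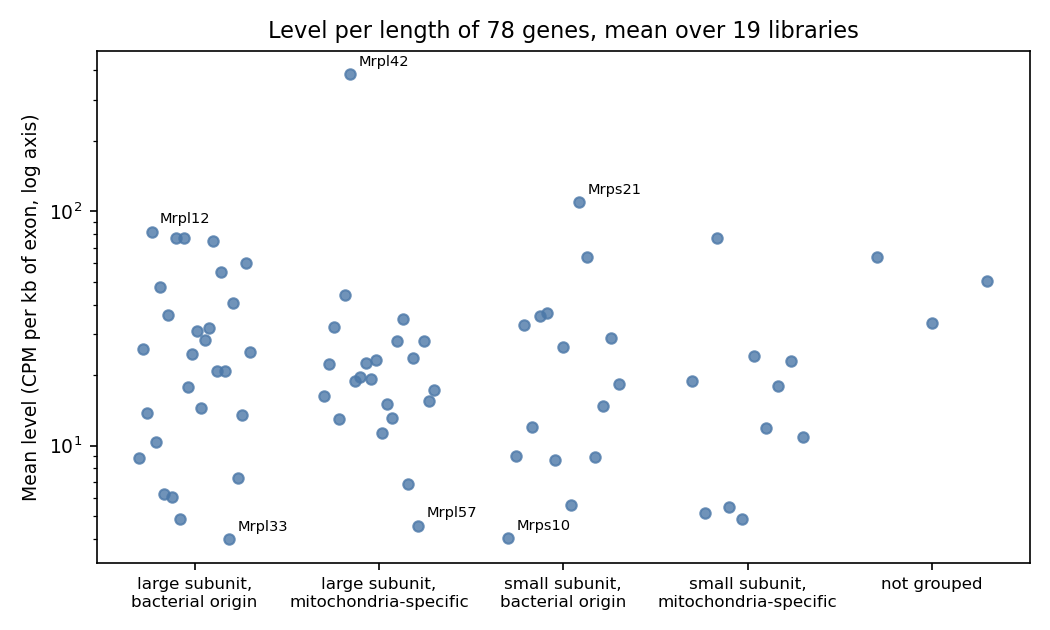
Level per length of the 78 genes by subunit and origin, as the mean over 19 libraries in CPM per kilobase of exon on a log axis, with 1 point per gene. Mrpl42, Mrps21 and Mrpl12 lie highest, and Mrpl57, Mrps10 and Mrpl33 lowest.

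The summed level of the 78 genes was lowest in PA-F1, PA-F2 and PA-F3. In chow females the sum was 4221, 4201, 4531, 4396 and 4778 CPM, and in PA-F1, PA-F2 and PA-F3 it was 3957, 3966 and 3977 CPM. These 3 libraries lay close together and below every other library. PA-F4 and PA-F5 held 4777 and 4876 CPM, so the high-fat females overlapped both ends of the chow range. In males the sum was 4396, 4607, 4372 and 4638 CPM on chow and 4139, 4221, 4250, 4359 and 4130 CPM on the high-fat diet, with no overlap. In whole-tissue RNA, fewer cells of a type and less RNA per cell cannot be told apart. The small and large subunits moved in step: the summed level of the 26 small subunit members was 0.379 to 0.397 of that of the 51 large subunit members in each of the 19 libraries.

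**Figure D2:**
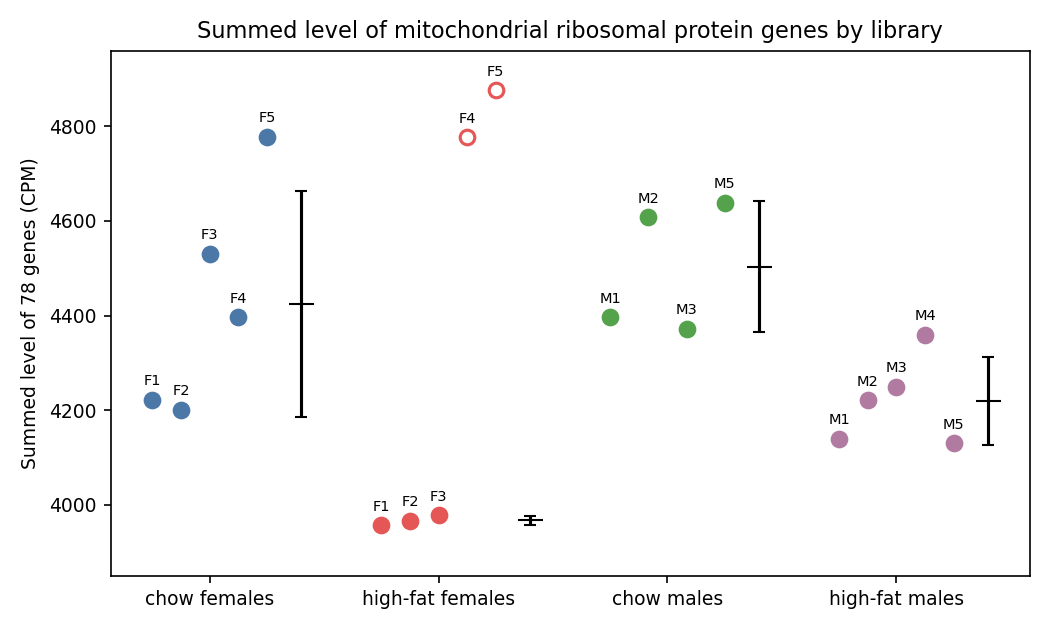
Summed level of the 78 genes in CPM, with 1 point per library; open circles are PA-F4 and PA-F5, and black bars give the mean and SD without them. PA-F1 to PA-F3 sit at 3957 to 3977, below every other library, and the axis does not start at 0.

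In females, the diet comparison depended on whether PA-F4 and PA-F5 were counted. Without them, all 78 members had a lower estimate in PA-F than in Chow-F, with a median of -0.15 (log2), where the median over all 18297 genes tested was 0.00. Of the 78, 15 were called lower and none higher at an adjusted p under 0.05 in edgeR's quasi-likelihood F-test. The adjustment was Benjamini-Hochberg over all genes. In the same test, 51 members had an unadjusted p under 0.05, as had 3833 of the 18297 genes. Over all genes, 2.5% were called lower and 2.45% higher. In 27 members every one of PA-F1, PA-F2 and PA-F3 lay below every chow female, against 6.47% of all genes. With all 19 libraries, 51 of 78 estimates were below 0, the median was -0.04 against -0.02 over all genes, and only Mrpl50 was called, against 0.863% of all genes called lower. The count of 15 was 4 when PA-F3 was also left out, 6 without PA-F2 and 9 without PA-F1, and it ranged up to 23 without Chow-F2. It was 2 in a fit of the female groups alone, against 0.813% of all genes called lower there. It was 3 with the largest exon piece of each gene, 5 with the replicate number as a block and 30 with DESeq2. Where no share of all genes stands beside a count, the count shows only how the number of calls varied. The median over the members ranged from -0.18 to -0.13 over the fits that left out 1 of the 17 libraries.

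Among the large subunit members of bacterial origin, 4 of 28 fell without PA-F4 and PA-F5: Mrpl30, Mrpl11, Mrpl33 and Mrpl4. Mrpl30 was at 171, 170.4, 179.8, 189 and 198 CPM in chow females and at 148, 162 and 152 in PA-F1, PA-F2 and PA-F3, a difference of -0.24 ± 0.06 (log2, SE, edgeR adjusted p = 0.0167). All 3 lay below every chow female, while PA-F4 and PA-F5 held 201 and 208 CPM, above every chow female. Mrpl11, the counterpart of a bacterial protein at the base of the factor-binding stalk, stood at 37.9, 41.4, 42.8, 42.5 and 46.2 CPM on chow and at 34.4, 36.1 and 35.3 in these high-fat females (-0.26 ± 0.06, edgeR adjusted p = 0.0183). Mrpl4, whose bacterial counterpart lines the tunnel that the new protein leaves through, was at 147, 153, 174, 154 and 178 CPM on chow and at 132, 141 and 146 in PA-F1, PA-F2 and PA-F3. Its difference was -0.21 ± 0.06 (edgeR adjusted p = 0.0448), and that of Mrpl33, from the counts not shared with another gene, was -0.22 ± 0.06 (edgeR adjusted p = 0.0436).

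Among the large subunit members specific to mitochondria, 3 of 22 fell: Mrpl42, Mrpl39 and Mrpl51. Mrpl42, the member with the smallest p, was at 258, 250.3, 282, 279 and 294 CPM in chow females and at 227, 229 and 224 in PA-F1, PA-F2 and PA-F3, a difference of -0.27 ± 0.05 (edgeR adjusted p = 0.00382). PA-F4 and PA-F5, at 273 and 269 CPM, lay inside the chow range. Mrpl39 was at 87.5, 87.7, 86.1, 92.0 and 91.5 CPM on chow and at 78.3, 81.1 and 73.3 in PA-F1, PA-F2 and PA-F3 (-0.20 ± 0.04, edgeR adjusted p = 0.0101). Its levels in PA-F4 and PA-F5, 84.6 and 83.5 CPM, were also below every chow female, so Mrpl39 was the 1 member whose 5 high-fat females did not overlap with chow females, against 1.9% of all genes. With all 19 libraries its difference was -0.15 ± 0.04 and missed the threshold (edgeR adjusted p = 0.0642). Mrpl51 differed by -0.19 ± 0.05 (edgeR adjusted p = 0.0352).

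Of the small subunit members, 3 of 15 of bacterial origin (Mrps18c, Mrps14 and Mrps10) and 3 of 10 specific to mitochondria (Mrps35, Mrps22 and Mrps27) fell. Mrps18c, one of the paralogs that descend from the same bacterial protein, was at 22.7, 22.9, 22.4, 21.9 and 23.1 CPM on chow and at 19.6, 18.4 and 17.7 in PA-F1, PA-F2 and PA-F3. Its difference of -0.29 ± 0.05 (edgeR adjusted p = 0.00419) was the lowest estimate of all members. PA-F4 and PA-F5 stood at 23.6 and 23.1 CPM, at the top of the chow range, and 35.7% of the gene's counts lay in shared pieces and were set aside. Mrps35 was at 88.7 to 97.7 CPM in the 5 chow females and at 80.1, 83.0 and 80.0 in these high-fat females (-0.22 ± 0.05, edgeR adjusted p = 0.0134). Mrps22, at 19.6 to 22.8 CPM on chow and 17.9, 18.5 and 16.9 in these libraries, differed by -0.26 ± 0.06 (edgeR adjusted p = 0.0189). Mrps14, at 37.9 to 43.4 CPM on chow and 36.3, 33.8 and 35.7 in them, differed by -0.21 ± 0.05 (edgeR adjusted p = 0.0192). In each of these, PA-F4 and PA-F5 lay inside or above the chow range.

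Mrps36 and Mrpl55 were called too. Mrps36, counted here with neither ribosomal subunit, is an adaptor subunit of the 2-oxoglutarate dehydrogenase complex of the citric acid cycle. It was at 65.0, 61.6, 69.5, 66.8 and 74.3 CPM on chow and at 58.6, 56.8 and 54.7 in PA-F1, PA-F2 and PA-F3 (-0.25 ± 0.06, edgeR adjusted p = 0.0180). PA-F4 and PA-F5 both held 76.2 CPM, above every chow female. Mrpl55 differed by -0.23 ± 0.06 (edgeR adjusted p = 0.0253). Mrps10, Mrps27, Mrpl51, Mrpl33 and Mrpl4 complete the 15 and are named here after their values were seen. The other 63 members had estimates that did not pass the test, and the range over all 78 was -0.29 to -0.03. Members with and without a promoter match to any of the 3 motifs had the same median, -0.15, and 8 of 42 with a match and 5 of 27 without were called.

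**Figure D3:**
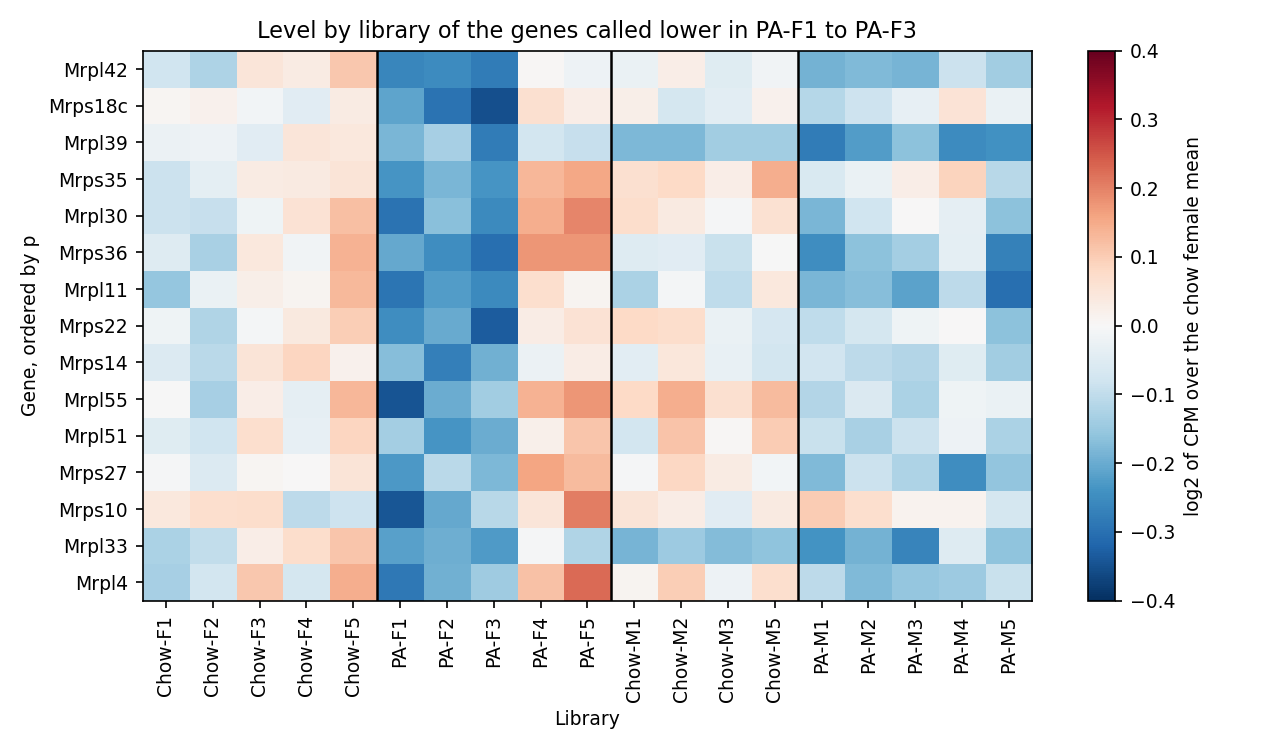
Level of the 15 genes called lower in PA-F1 to PA-F3, as log2 of CPM over the chow female mean, with 1 row per gene and 1 column per library. PA-F1 to PA-F3 are blue throughout, whereas PA-F4 and PA-F5 are mostly at or above the chow mean.

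Other marker genes moved with this comparison. Of 8 cardiomyocyte markers, 5 fell in PA-F without PA-F4 and PA-F5 (Myl2, Tnnt2, Tnni3, Pln and Nppa), and 1 had an estimate above 0 (0.15, not called). The summed level of all 8 was 78379 to 85336 CPM in PA-F1, PA-F2 and PA-F3, 87827 to 94855 in chow females and 89983 to 91409 in PA-F4 and PA-F5. Of 5 erythroid markers 4 rose, with sums of 359 to 419 CPM in PA-F1, PA-F2 and PA-F3 and 235 to 297 on chow. Of 6 fibroblast markers 2 rose and 1 had an estimate below 0, with sums over all 6 of 1241 to 1469 and 987 to 1106 CPM. Of 5 endothelial markers 3 rose, from sums of 678 to 781 to 816 to 887 CPM. None of 3 smooth muscle markers was called by edgeR, with 2 at an unadjusted p under 0.05, and their sums were 165 to 188 CPM in PA-F1, PA-F2 and PA-F3, above the 113 to 163 of chow females. None of 5 macrophage or 3 tested adipocyte markers was called by edgeR, with 1 and 0 at an unadjusted p under 0.05, and the adipocyte sum stayed at 0.419 to 1.24 CPM in these 3 libraries, with Lep at 0 in 11 of the 19 libraries. The part of cell makeup in the members' result was not tested.

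In PA-F4 and PA-F5, most members were above the chow female mean while Mrpl50 and Mrpl1 were far below it. The median deviation of the 78 members from that mean was 0.12 and 0.18 log2 units in PA-F4 and PA-F5, with 67 and 68 members above it. It was -0.14, -0.16 and -0.15 in PA-F1, PA-F2 and PA-F3. Single chow females ranged from -0.08 to 0.11, with 8 to 76 members above the mean, so Chow-F5 (0.11, 76 members) came near PA-F4. In PA-F4 and PA-F5, members above the median GC content of 49.8% deviated by a median of 0.16 and 0.21 and those below it by 0.07 and 0.11. In PA-F1, PA-F2 and PA-F3 the members above the median GC deviated by -0.13, -0.14 and -0.13, and those below by -0.15, -0.18 and -0.19. Over the 78 members, the female diet difference had a Pearson r of 0.44 with GC content with all 19 libraries and 0.21 without the pair, as a description over genes that share libraries. The part of GC content in the members' levels was not tested apart from this and the GC-adjusted fit below.

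**Figure D4:**
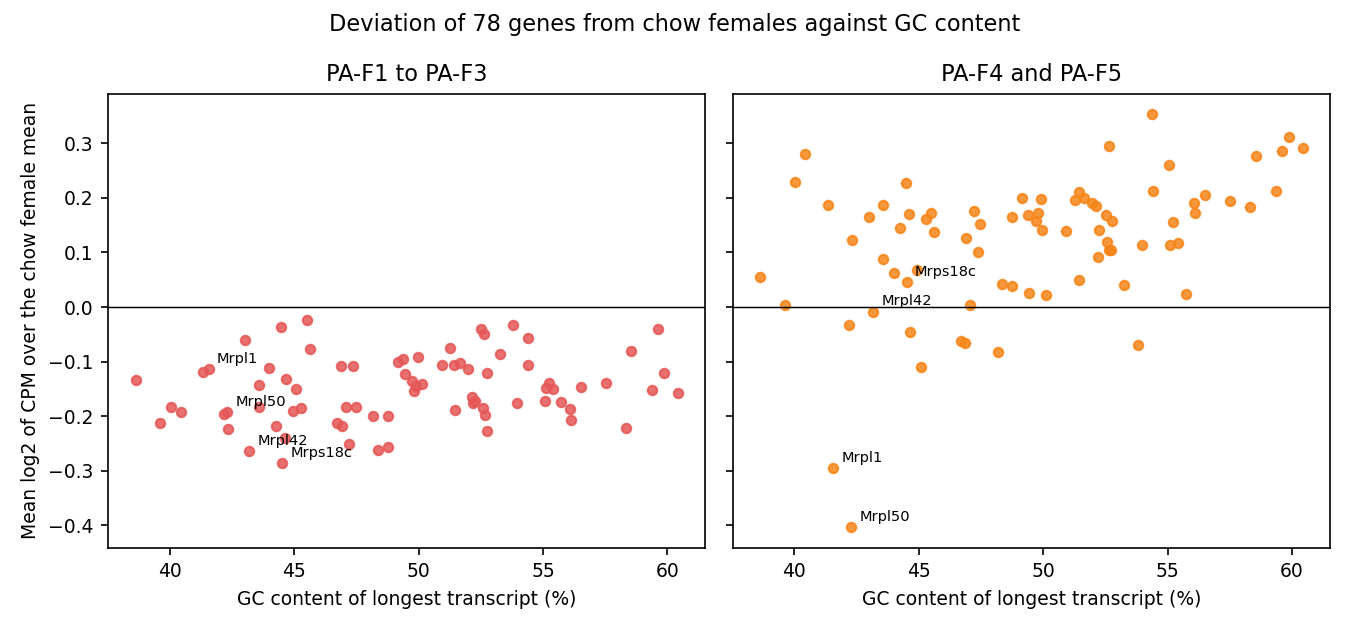
Mean deviation of each of the 78 genes from the chow female mean, as log2 of CPM ratio, against the GC content of its longest transcript, for PA-F1 to PA-F3 (left) and PA-F4 and PA-F5 (right). On the left all points lie below 0; on the right most lie above 0, with Mrpl1 and Mrpl50 lowest.

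Mrpl50, a large subunit protein specific to mitochondria, was the member called with all 19 libraries. It was at 27.5, 28.3, 27.9, 29.1 and 30.8 CPM in chow females, 28.9, 24.3 and 22.6 in PA-F1, PA-F2 and PA-F3, and 23.3 and 20.2 in PA-F4 and PA-F5 (-0.27 ± 0.07, edgeR adjusted p = 0.0466). PA-F1 lay inside the chow range and the other 4 below it. The call was lost when PA-F4 and PA-F5 were left out (-0.19 ± 0.06, edgeR adjusted p = 0.0904) and in 18 of 19 fits that left out 1 library, with adjusted p from 0.00261 to 0.106. Mrpl1, whose bacterial counterpart forms a stalk beside the exit site of the large subunit, was at 34.6 to 40.1 CPM in chow females, 35.3, 36.4 and 32.0 in PA-F1, PA-F2 and PA-F3, and 33.6 and 27.6 in PA-F4 and PA-F5. That difference was -0.18 ± 0.07 (edgeR adjusted p = 0.170). With the GC trend of each library removed, the 19-library estimates of Mrpl50 and Mrpl1 turned to 0.19 and 0.35, neither called.

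In males, no member was called with all 19 libraries (0 also by DESeq2), against 0.764% of all genes in either direction. In edgeR, 6 of 78 members had an unadjusted p under 0.05, as had 1539 of 18069 genes. The estimates were below 0 for 71 of 78, with a median of -0.07, where the median of all genes was 0.00. In 9 members all 5 high-fat males lay below all 4 chow males, against 3.98% of all genes, and in none above, against 3.6% of all genes. They were Mrpl4, Mrpl12, Mrpl18, Mrpl42, Mrpl55, Mrpl58, Mrps2, Mrps17 and Mrps27. Mrpl18, which also helps bring ribosomal RNA into mitochondria, had the smallest p, with 114, 118, 108 and 120.2 CPM on chow and 104, 104, 102, 107 and 95.1 on the high-fat diet (-0.17 ± 0.06, edgeR adjusted p = 0.306). Mrpl12 was at 129, 140.4, 129 and 143 CPM on chow and 116, 119, 119.8, 122 and 116 on the high-fat diet (-0.19 ± 0.08, edgeR adjusted p = 0.531). Mrps27, a small subunit protein specific to mitochondria, was at 46.1, 48.9, 47.2 and 45.9 CPM on chow and 40.9, 43.5, 42.4, 38.9 and 41.4 on the high-fat diet. Its difference of -0.18 ± 0.07 was not called with 19 libraries (edgeR adjusted p = 0.390) and was the 1 male call without PA-F4 and PA-F5, which enter only through the shared spread (-0.18 ± 0.04, edgeR adjusted p = 0.0274), against 1.23% of all genes called lower. Mrps27 was thus called in both sexes in that fit, at -0.17 ± 0.05 in females. Fitted with the male groups alone, 5 members were called lower, against 1.55% of all genes. Summed cardiomyocyte markers were 80393 to 86080 CPM in high-fat males and 89116 to 95811 in chow males, with 0 of 8 called with 19 libraries and 1 without the pair. Endothelial sums were 725 to 799 CPM on chow and 800.0 to 874 on the high-fat diet, with 0 of 5 called, and smooth muscle sums were 110.4 to 116 and 119 to 180.5 CPM, with 0 of 3 called with 19 libraries and 1 higher without the pair (Acta2). All 5 macrophage markers had estimates below 0, with 0 called and 3 at an unadjusted p under 0.05. The part of cell makeup in the males' values was not tested.

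The diet difference was not shown to differ between the sexes for any member. In the interaction, 0 of 78 members were called by edgeR (0 also by DESeq2), and 0% of all genes. In edgeR, 1 member had an unadjusted p under 0.05, as had 1839 of 18069 genes. The median of the interaction over members was 0.06 with all 19 libraries and -0.07 without PA-F4 and PA-F5, so its sign turned with the pair. Mrpl50 had the smallest p with 19 libraries, at -0.25 ± 0.10 (95% interval -0.47 to -0.04, edgeR adjusted p = 0.421). Without the pair, 0 members were again called by edgeR, with 7 at an unadjusted p under 0.05, against 2036 of 18297 genes. Mrps18c came first at -0.27 ± 0.07 (95% interval -0.42 to -0.12, edgeR adjusted p = 0.188). In males Mrps18c was at 23.0, 21.6, 21.9 and 22.9 CPM on chow and 20.9, 21.4, 22.1, 23.5 and 22.2 on the high-fat diet, and these ranges overlapped.

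Between the sexes on chow, no member was called with all 19 libraries (1 by DESeq2), against 3.22% of all genes. In edgeR, 6 members had an unadjusted p under 0.05, as had 3006 of 18069 genes. Mrpl39 came closest: chow males stood at 78.6, 78.6, 80.8 and 80.8 CPM, below all 5 chow females at 86.1 to 92.0, a difference of 0.16 ± 0.04 (edgeR adjusted p = 0.0634). Mrpl39 and Mrpl33 were the 2 members in which every chow female was above every chow male, against 5.66% of all genes. Without PA-F4 and PA-F5, Mrpl39 (0.16 ± 0.04, edgeR adjusted p = 0.0108) and Mrpl27 (0.20 ± 0.06, edgeR adjusted p = 0.0291) were called higher in females, against 5.01% of all genes. Mrpl27, the counterpart of a bacterial protein near the peptidyl transferase centre, was at 33.2, 34.7, 35.0, 31.0 and 36.6 CPM in chow females and 28.2, 28.5, 29.5 and 32.6 in chow males. On the high-fat diet Mrpl39 stood at 73.3 to 79.4 CPM in males and 73.3 to 84.6 in females, and the sexes overlapped. Of 6 fibroblast markers, 2 were higher in chow females than in chow males in both fits (Lum and Tcf21), and 2 had estimates below 0. The sums over all 6 were 987 to 1106 and 958 to 1029 CPM, and their part in the members' levels was not tested.

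On the high-fat diet, 2 members were lower in females than in males with all 19 libraries, Mrpl1 and Mrpl50, against 3.92% of all genes called lower. Mrpl1 stood at 40.7, 38.3, 45.4, 41.5 and 40.5 CPM in high-fat males and at 27.6 to 36.4 in the 5 high-fat females (-0.33 ± 0.07, edgeR adjusted p = 0.00719). It was the 1 member in which the sexes did not overlap, against 5.22% of all genes below. Mrpl50 stood at 28.6 to 30.5 CPM in high-fat males (-0.31 ± 0.07, edgeR adjusted p = 0.0101), and PA-F1, at 28.9, overlapped with them. With the GC trend of each library removed, the estimates turned to 0.26 for Mrpl1 and 0.20 for Mrpl50, and no member was called, nor was any in a fit of the high-fat groups alone. Without PA-F4 and PA-F5, and with no GC adjustment, both were still lower, at -0.26 ± 0.06 and -0.23 ± 0.06 (edgeR adjusted p = 0.0124 and 0.0267). In that fit 11 members in all were lower in females and none higher, against 5.47% of all genes called lower and 4.89% higher. The median over members was 0.03 with 19 libraries and -0.08 without the pair.

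The other 9 of those 11 were Mrps18c, Mrpl19, Mrps35, Mrps10, Mrpl45, Mrps9, Mrps23, Mrpl28 and Mrpl35, of which all but Mrps18c and Mrpl19 are named after their values were seen. Mrpl19 was at 27.6, 27.6, 27.4, 29.5 and 25.5 CPM in high-fat males and 23.4, 22.7 and 22.6 in PA-F1, PA-F2 and PA-F3 (-0.27 ± 0.06, edgeR adjusted p = 0.0103). Mrps10 was at 31.1 to 35.0 CPM in these males and 25.8, 28.4 and 30.2 in these females (-0.24 ± 0.06, edgeR adjusted p = 0.0144). Mrpl45, which holds the ribosome at the inner membrane, was at 57.2 to 61.8 CPM in these males and 56.1, 48.7 and 50.3 in these females (-0.21 ± 0.06, edgeR adjusted p = 0.0210). In 22 members the 3 females lay below all 5 males, against 8.85% of all genes. The count of 11 was 1 without PA-F3, 3 without PA-F2, 4 with the largest exon piece, 5 with the replicate block and 19 with DESeq2. With a GC covariate it was 14, of which 7 were among the 11. The shares of all genes called in these fits are not given here. Of 6 fibroblast markers 4 were higher in females than in males in both fits (Col1a1, Col3a1, Lum and Tcf21), and 1 had an estimate below 0. The sums over all 6 were 1180.0 to 1469 CPM in the 5 high-fat females and 1011 to 1116 in high-fat males. Of 5 macrophage markers 1 was higher in both fits (Cd68), with sums of 106 to 125 and 91.6 to 112 CPM. No cardiomyocyte, endothelial, erythroid, adipocyte or smooth muscle marker was called in either fit. The part of cell makeup in the comparison was not tested.

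**Figure D5:**
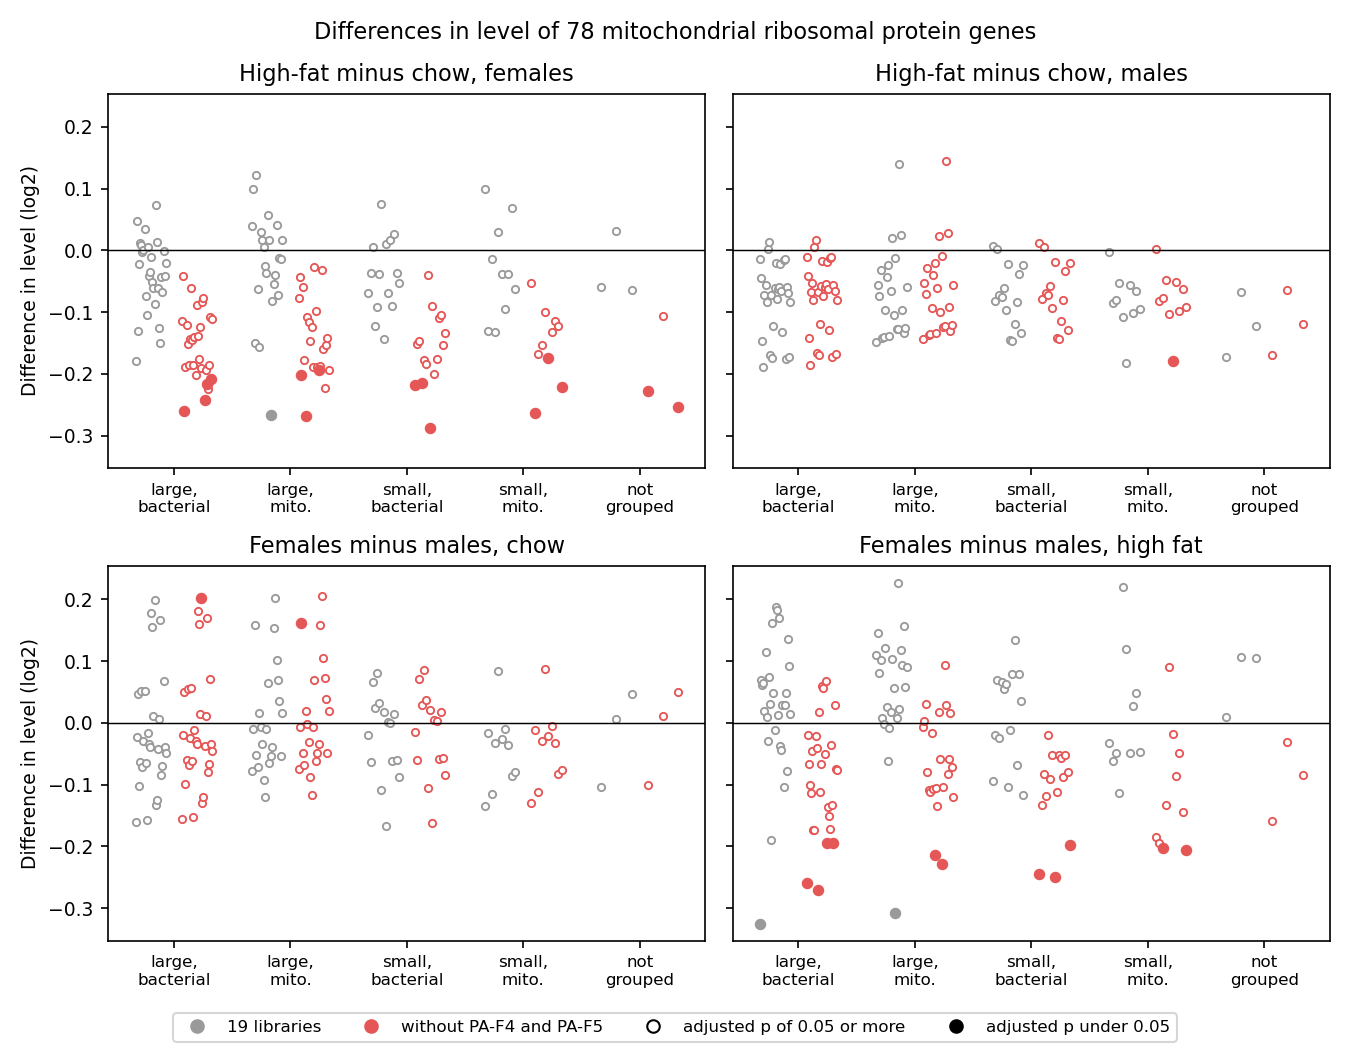
Differences in level (log2) of the 78 genes in 4 comparisons, by subunit and origin, with all 19 libraries (grey) and without PA-F4 and PA-F5 (red); filled points have an adjusted p under 0.05. In females all 78 red points lie below 0 and 15 are filled, and in males 1 red point is filled.

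The paralogs Mrps18a, Mrps18b and Mrps18c sit at different places of the ribosome, Mrps18a in the large and the other two in the small subunit. Without PA-F4 and PA-F5, the female diet difference was -0.14 ± 0.06 for Mrps18a (edgeR adjusted p = 0.143), -0.05 ± 0.06 for Mrps18b (edgeR adjusted p = 0.701) and -0.29 for Mrps18c, the only called one of the paralogs. Mrps18a was at 52.2 to 60.9 CPM in chow females and 51.3, 53.1 and 52.3 in PA-F1, PA-F2 and PA-F3, which overlapped. Mrps18b was at 33.7 to 42.2 CPM in chow females and at 36.1, 36.6 and 34.8 in these 3, inside the chow range. The differences between the paralogs' responses were not tested.

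Members varied together between libraries of a group. Without PA-F4 and PA-F5, the deviations of a member from its group means had a median Pearson r of 0.64 with the mean of the other members over 17 libraries, and 54 of 78 members were above 0.5, against 9.49% of the other genes. Mrpl34 (r = 0.91), Mrpl12 (0.89) and Mrps21 (0.89) followed the rest most closely, and Mrps10 (-0.26) and Mrpl1 (0.08) least. With all 19 libraries the median r was 0.84, and 72 of 78 members were above 0.5, against 19.5% of the other genes. These values describe libraries that share a depth and scaling factor.

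The wider machinery of mitochondrial translation was compared from lists of genes outside the symbol rule. In females without PA-F4 and PA-F5, 1 of 5 mitochondrial ribosomal proteins with other symbols fell, Chchd1, at 32.4 ± 2.57 (SD, n = 5) CPM on chow and 26.9 ± 1.40 (n = 3) in PA-F (-0.27 ± 0.07, edgeR adjusted p = 0.0340). Of 24 genes of ribosome assembly 2 fell, the ribosomal RNA methyltransferase gene Tfb1m (-0.34 ± 0.08, edgeR adjusted p = 0.0148) and Mpv17l2 (-0.30 ± 0.08, edgeR adjusted p = 0.0364). Of 20 mitochondrial tRNA synthetase genes 1 fell, Rars2 (-0.19 ± 0.05, edgeR adjusted p = 0.0471). Of 11 genes of mitochondrial DNA expression 1 fell, the transcription elongation factor gene Tefm (-0.26 ± 0.07, edgeR adjusted p = 0.0302). None of 14 tested translation factors was called by edgeR, with 7 at an unadjusted p under 0.05, and Taco1, an activator of translation of a cytochrome c oxidase subunit, came closest (-0.16 ± 0.05, edgeR adjusted p = 0.0926). The medians of these lists were -0.14, -0.10, -0.09, -0.11 and -0.10, against -0.15 for the 78 members. With all 19 libraries, Tfb1m, Rars2 and the mitochondrial DNA-binding protein gene Ssbp1 were the called genes of these lists in females.

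The messenger RNAs of the mitochondrial genome, which the ribosome translates, lay on the other side of 0 in males. All 13 had estimates above 0 in high-fat males, with a median of 0.25, while 71 of 78 members were below 0. Their summed level was 106227 to 113790 CPM in high-fat males and 87301 to 97744 in chow males, with no overlap. With 19 libraries none of the 13 was called by edgeR (2 at an unadjusted p under 0.05). Without PA-F4 and PA-F5, which enter the male comparison only through the shared spread, 5 rose, against 249 of 18297 genes called higher. Among the 5 was mt-Cytb, which encodes a complex III subunit, from 14268 ± 769 (SD, n = 4) to 17179 ± 635 (n = 5) CPM (0.27 ± 0.06, edgeR adjusted p = 0.0209). In females none of the 13 was called by edgeR in either fit, with 6 and 1 at an unadjusted p under 0.05, and the sum was 102612, 87344 and 73586 CPM in PA-F1, PA-F2 and PA-F3, 84421 and 72063 in PA-F4 and PA-F5, and 84052 to 94286 on chow. On the high-fat diet 7 of 13 were lower in females than in males with 19 libraries, against 3.92% of all genes, and 9 of 13 without the pair, against 5.47%. These transcripts are read through polyA selection, and its part in their levels was not tested.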

How the data were processed

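Per the labels' protocols, polyA-selected RNA of mouse hearts was read on a NovaSeq. The deposited values are whole counts. Salmon 1.5.1, DESeq2 1.32.0 and GRCm39 are named in the submitters' processing notes, but 19 deposited files hold counts for 425461 exon pieces and the file of Chow-M4 holds counts for 49315 genes. How reads were counted and whether by strand is not given in the sources used here, and a read that spans several pieces can be counted in each. Counts were summed per gene. Of 33309 pieces with joined gene IDs, 27829 were given to 1 gene and 5480 were not used (1.35% to 1.49% of counts). Shared pieces held 98.2% of the counts of Mrpl53, 65.3% of Mrpl33, 40.9% of Mrps34, 35.7% of Mrps18c and 20.0% of Mrps6. Symbols came from GENCODE vM21, and 65 of 78 members had the same position in the files as in its GRCm38 annotation.

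Genes passing edgeR's expression filter (18069 with 19 libraries, 18297 without PA-F4 and PA-F5) were tested with edgeR 4.0.16's quasi-likelihood F-test, TMM factors, 1 model of the 4 groups (15 and 13 residual degrees of freedom), and Benjamini-Hochberg adjustment, with calls at an adjusted p under 0.05. The design had assumed per-gene counts in 20 samples; Chow-M4 could not join the fit. CPM use the counts assigned to genes as library size, scaled by TMM. The standard error is the log2 difference over the square root of F. GC content is that of the longest GENCODE transcript. No 2 replicates agreed within sampling noise (smallest chi-square per degree of freedom 7.73). Intervals are at 95%.

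Named members were, per comparison, those called, or the 10 with the smallest p where fewer than 10 were called, plus the 3 highest and 3 lowest by level per length, the Mrps18 paralogs and Mrps36. Of other lists, up to 4 called genes with the smallest p were taken. The members, lists, motif letters and alternatives were chosen with earlier results of these data known, and the NRF1 letters were shortened by 1 base after a first search. Alternatives were DESeq2 1.42.0, its size factors, no filter, a minimum of 1 CPM in 5 or more libraries, a fit of the compared groups alone, the replicate number as a block, the largest exon piece of each gene, a GC covariate per library, and each library left out. Their rerun without PA-F4 and PA-F5 was added after the data were seen. The scripts were tested on simulated counts of 18069 genes, with the spread taken from the fit of 19 libraries and shared by all groups. For diet in females and in males, 93.9% and 92.4% of genes changed by a fold of 2 were found. At a fold of 1.5, 49.3% and 47.8% were found, and 0% of both at 1.15, near the size of the members' differences. The fit without PA-F4 and PA-F5 was not simulated, so these shares do not describe it.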

Additional observations from a re-analysis of the deposited data

Results flagged for a closer look

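Among 41 named quantities in the groups of 4 or 5 libraries (164 groups in all), 8 held a library far from the others of its group, where chance flags about 1 in 20 groups. Chow-F5 was high for Mrpl22, at 40.8 CPM against 28.7 to 31.7 in the other chow females, for Mrpl46, at 28.8 against 26.1 to 26.9, and for Mrps17, at 62.9 against 51.4 to 53.8. Mrps18b was at 37.7 CPM in Chow-M3, below the other chow males at 41.5 to 42.2, and at 44.8 in PA-M3, above the other high-fat males at 39.1 to 40.1. Mrps25 was at 35.3 CPM in Chow-M3 against 38.1 to 38.4. Mrps26 was at 23.6 CPM in Chow-M5 against 19.4 to 20.1 and at 17 (17.03) in PA-M5 against 19.3 to 20.1.

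Of the 5 pseudogenes left out of the members, 4 had counts above the level that 3 counts give in the smallest library, 0.0539 CPM. Their highest levels were 0.241 CPM for Mrps36-ps1, 0.775 for Mrpl23-ps1, 0.138 for Mrpl48-ps and 0.0777 for Mrps36-ps2, while Mrps36-ps3 had no count.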

How the results depend on the processing

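With 19 libraries, the member called for diet in females became 15 without PA-F4 and PA-F5, 2 with DESeq2, 2 with a filter of 1 CPM in 5 libraries, and 0 with no filter, with the largest exon piece, with a GC covariate and with only the groups compared; leaving out 1 library gave 0 to 1. For diet in males, 0 became 1 without PA-F4 and PA-F5 and 5 with only the groups compared, and leaving out 1 library gave 0 to 0. For sex on chow, 0 became 2 without the pair and 1 with DESeq2, with the stricter filter and with only the groups compared, and leaving out 1 library gave 0 to 1. For sex on high fat, 2 became 11 without the pair, 4 with DESeq2, and 0 with a GC covariate and with only the groups compared, and leaving out 1 library gave 2 to 4. The interaction had 0 calls under every alternative. Without PA-F4 and PA-F5, the 15 calls in females became 30 with DESeq2, 3 with the largest exon piece and 2 with only the groups compared, and 4 to 23 on leaving out 1 library. All 15 were among the 30 of DESeq2, and a GC covariate gave 22, of which 14 were shared. The 11 for sex on high fat became 19 with DESeq2 and 4 with the largest exon piece, and 1 to 16 on leaving out 1 library. For this comparison a GC covariate gave 14, of which 7 were shared. These counts stand without the share of all genes called, so they show only how the number of calls varied. 

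Same-numbered libraries deviated together little (r from -0.07 to 0.16, above 0.1 in 2 of 27 pairs), and the main fits used no pairing. Libraries with different numbers are not set beside them here, so a weak pairing cannot be told from none. With the replicate block the female diet count was 0 with 19 libraries and 5 of the 15 without PA-F4 and PA-F5. The count for sex on high fat was 5 without PA-F4 and PA-F5. 

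With a GC covariate and 19 libraries, female diet differences turned to 0.19 (Mrpl50), 0.11 (Mrps25), 0.31 (Mrpl42), 0.35 (Mrpl1), 0.67 (Mrps14), 0.0117 (Mrps5), 0.19 (Mrps18c), 0.20 (Mrps31), 0.30 (Mrps35), 0.27 (Mrpl30) and 0.0261 (Mrps36). The interaction turned to 0.25 for Mrpl50 and 0.41 for Mrpl1, and sex on high fat to 0.26 (Mrpl1), 0.20 (Mrpl50) and 0.16 (Mrps25). Mrpl55 for diet in females ranged from -0.13 to 0.0031 on leaving out 1 library, the latter without PA-F1, and the interaction of Mrpl12 was -0.00261 without PA-F4 and PA-F5. The cause was not tested. Of 494 single-gene values under alternatives other than leaving out 1 library, 443 kept their direction and side of the threshold, as did 1038 of 1064 on leaving out 1 library. Few of these values were called at the start, and for the rest keeping the side of the threshold says little. On leaving out 1 library, the calls of Mrpl1 and Mrpl50 for sex on high fat each held in 19 of 19 fits. The call of Mrpl50 for diet in females held in 1 of 19. The smallest count of a member in a library was 32 (Mrpl53), and 561 among the others; the effect of depth was not tested.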
